A study of Homo sapiens with 16 samples.

Results

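The 600 transcripts with the least polymerase pausing near the promoter in untreated Kasumi-1 cells were examined. The assay was PRO-seq, which maps engaged RNA polymerase through run-on labelling of nascent RNA. Kasumi-1 is a cell line from acute myeloid leukaemia. These transcripts are the lowest 10% of 6009 eligible transcripts, out of 10304 listed, ranked by a pausing index. The index is the number of promoter-proximal reads divided by the gene-body reads per kb of transcript, so its unit is the length of gene body, in kb, that holds as many reads as the promoter-proximal window. Eligible transcripts were RefSeq coding entries of 6 to 150 kb with at least 100 promoter-proximal reads in the 2 untreated libraries that served for the choice. In all libraries both SMARCA5 alleles carried FKBP12F36V, and dTAG-47 at 500 nM, which directs the tagged remodeller ATPase to degradation, was applied for 2, 6 or 24 h. The tables hold 14 libraries of these cells, in 3 runs. The run numbers stand for a code in the headers, and no source used here says what it marks. Run 1 held 2 untreated libraries, which chose the members, and 1 at 2 h. Run 2 held 2 libraries at each of 0, 2, 6 and 24 h, and run 3 held 1 at 0 h and 2 at 6 h. Changes were tested only over the 11 libraries of runs 2 and 3 (0 h n = 3, 2 h n = 2, 6 h n = 4, 24 h n = 2). The series names its samples biological replicates, but no label says whether the tagged cells are 1 clone. The 2 parental samples were not analysed here, so every group compared carries the tag.

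At most genes of animal cells, RNA polymerase II starts a transcript and then halts shortly downstream of the promoter, held by the factors NELF and DSIF. The kinase P-TEFb releases it into productive elongation, and the ratio of reads near the promoter to reads along the gene body is the usual measure of this halt. A low ratio means few reads near the listed start for the reads along the body, whatever brings that about. SMARCA5 is an ATPase of the ISWI remodellers, which slide and space nucleosomes along genes.

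The promoters below belong to least paused genes on which the results turn. GFI1 and HNRNPA3 had the lowest indices of all in the choosing libraries. In runs 2 and 3, PCNA, MYB and SFXN1 had lower gene-body reads after dTAG-47 and RRM2 higher ones. MMAB had higher gene-body reads at 2 h but not at 24 h. Each run is the 150 bases before the gene's start in RefSeq (GRCh38.p14), 5′ to 3′ on the gene's strand, and capitals mark GC boxes (GGGCGG) and CCAAT boxes on either strand. RefSeq gives 1 start per gene, which is not necessarily the start of the transcript that the authors counted.
GFI1 (chr1:92486926-92487075, - strand): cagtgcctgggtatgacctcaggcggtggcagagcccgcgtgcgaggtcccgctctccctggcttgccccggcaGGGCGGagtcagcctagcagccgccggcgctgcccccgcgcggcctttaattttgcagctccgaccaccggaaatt.
HNRNPA3 (chr2:177212644-177212793, + strand): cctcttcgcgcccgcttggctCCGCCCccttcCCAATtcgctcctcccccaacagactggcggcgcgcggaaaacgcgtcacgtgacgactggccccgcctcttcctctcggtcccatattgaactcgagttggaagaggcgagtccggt.
MYB (chr6:135181158-135181307, + strand): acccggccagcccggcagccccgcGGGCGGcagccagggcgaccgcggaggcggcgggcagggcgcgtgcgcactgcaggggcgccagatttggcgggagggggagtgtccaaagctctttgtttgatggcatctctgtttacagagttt.
PCNA (chr20:5126623-5126772, - strand): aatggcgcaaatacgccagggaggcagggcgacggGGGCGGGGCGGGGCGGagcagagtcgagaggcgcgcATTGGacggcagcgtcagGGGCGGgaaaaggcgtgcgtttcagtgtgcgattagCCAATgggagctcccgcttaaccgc.
SFXN1 (chr5:175478410-175478559, + strand): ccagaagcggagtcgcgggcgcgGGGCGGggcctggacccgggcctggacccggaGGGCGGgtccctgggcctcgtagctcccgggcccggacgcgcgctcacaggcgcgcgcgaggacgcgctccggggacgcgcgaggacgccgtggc.
RRM2 (chr2:10122589-10122738, + strand): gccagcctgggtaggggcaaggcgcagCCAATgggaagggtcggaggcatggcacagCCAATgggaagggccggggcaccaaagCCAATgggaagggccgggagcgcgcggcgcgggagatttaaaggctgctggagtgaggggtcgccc.
MMAB (chr12:109573505-109573654, - strand): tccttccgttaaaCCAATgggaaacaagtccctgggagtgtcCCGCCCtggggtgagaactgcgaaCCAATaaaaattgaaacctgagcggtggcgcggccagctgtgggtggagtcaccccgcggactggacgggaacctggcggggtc.
The windows of GFI1 and MYB, both transcription factors of blood progenitors, held 1 GC box each and 0 CCAAT boxes. Those of PCNA, RRM2 and MMAB held 2, 3 and 2 CCAAT boxes, and PCNA held 4 GC boxes, 3 of them overlapping each other's ends.

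Each library held 11182894 to 34209362 gene-body reads and 1667950 to 7171601 promoter-proximal ones. The promoter-proximal share of reads differed between runs and times: in the untreated libraries it was 9.55% and 12.6% in run 1, 19.7% and 20.6% in run 2 and 13.0% in run 3, and in the treated libraries of run 2 it was 11.3% to 15.7%. SMARCA5 itself, whose protein and not its transcription is the target, showed no change past the threshold (gene-body log2 change -0.08 ± 0.099 at 2 h, -0.04 ± 0.080 at 6 h and -0.09 ± 0.099 at 24 h, SE), which says nothing about the protein. Of 12 myeloblast markers 8 were listed, with a summed gene-body level of 11020 to 13106 CPM (library-size normalised reads of the region) in untreated libraries, and 3 of them, MYB, RUNX1 and CD34, were least paused. Of the T cell, B cell, erythroid and fibroblast markers 0 were listed, and of the epithelial ones EPCAM alone was, at 26.6 to 33.6 CPM. The library 6 h A of run 3 stood apart: 316 of the 600 members were in its lowest 10%, against 365 to 418 in the other 8 treated libraries, and its omission raised the share of members called in each of the tests below.

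In the choosing libraries the members had indices from 0.0904 (GFI1) to 0.974 (AP3M1), with a median of 0.696 kb against 3.60 kb over all eligible transcripts and 24.8 kb in the most paused 10%. These values set the membership and are given as a description. MORC3 at 0.973, PLCG1 at 0.974 and AP3M1 at 0.974 lay just inside the limit, and ESRRA at 0.974, GLI4 at 0.975 and REV1 at 0.975 just outside. In the untreated libraries of runs 2 and 3, which the choice did not use, 419 of 600 members (69.8%) were again in the lowest 10% and all 600 were below the median. The members' median index there was 1.31 kb, with quartiles of 0.886 and 1.78, against 6.20 kb over eligible transcripts and 37.3 kb in the most paused 10%. Across eligible transcripts the 2 sets of untreated libraries ranked the index alike (Spearman rho 0.917, n = 6009 transcripts), and within the members less so (rho 0.621, n = 600). The members were cut to the lowest part of the index range, so these 2 correlations cannot be set against each other. The lowest index in runs 2 and 3 was that of C22orf46, a gene of unknown role picked out here after its values were seen: 0.0971 kb from 18 promoter-proximal reads, against 0.642 kb in the choosing libraries. Both indices share gene length and the same annotated windows.

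**Figure D1:**
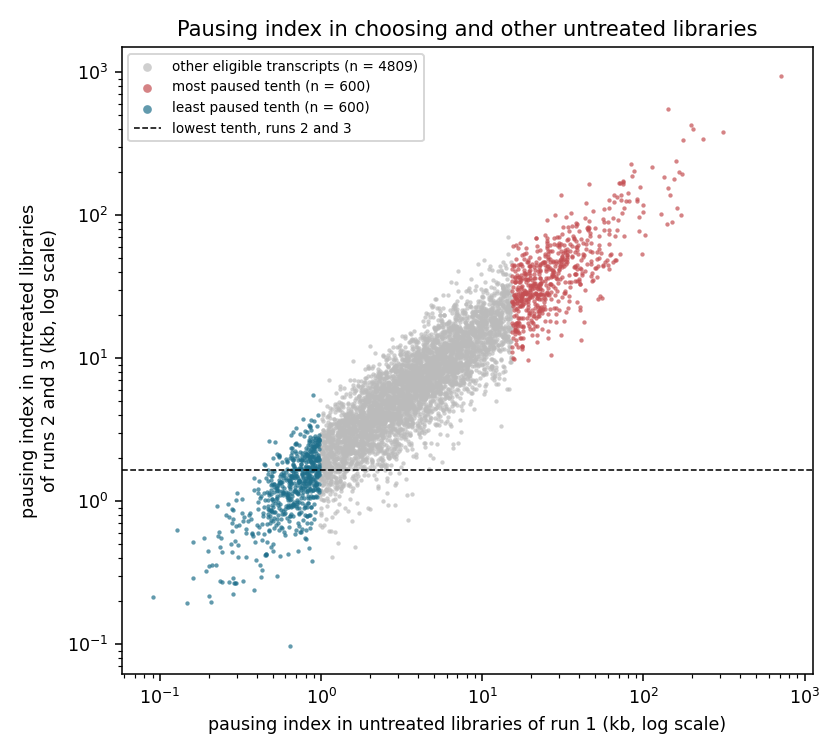
Pausing index of each eligible transcript in the untreated libraries of run 1 (x axis, kb, log scale), which chose the members, and of runs 2 and 3 (y axis, kb, log scale). Blue points are the 600 least paused transcripts, 419 of them below the dashed limit of the lowest 10%, red points the most paused 10% and grey points the rest.

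The members' median index followed the level of all eligible transcripts from library to library. In untreated libraries the members' median was 0.606 and 0.739 kb in run 1, 1.45 and 1.68 kb in run 2 and 0.889 kb in run 3, beside 3.02, 4.08, 6.93, 7.43 and 4.38 kb over eligible transcripts. After dTAG-47 the members' medians in run 2 were 0.698 and 1.004 kb at 2 h, 1.002 and 1.003 kb at 6 h and 0.876 and 1.09 kb at 24 h, all below both untreated libraries of that run. The eligible transcripts as a whole had medians of 3.35 to 5.37 kb in these 6 libraries, also below their untreated values. In run 3 the 6 h libraries were at 0.911 and 0.822 kb, on either side of the untreated 0.889 kb. In run 1 the 2 h library was at 1.03 kb, but the members were chosen for low values in the untreated libraries of that run, so this value is a description and not a comparison.

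**Figure D2:**
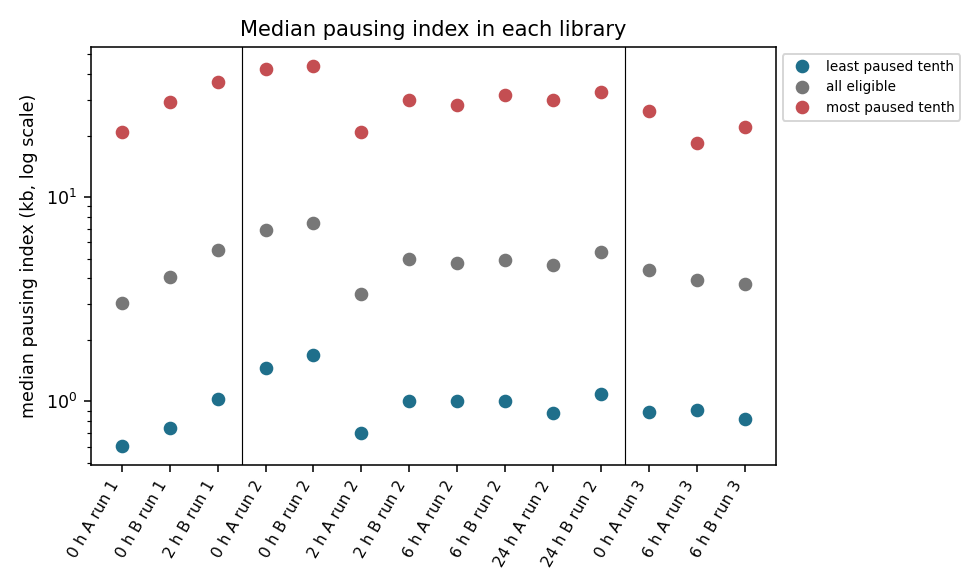
Median pausing index (y axis, kb, log scale) in each of the 14 libraries (x axis, grouped by run, vertical lines between runs) for the least paused 10% (blue), all eligible transcripts (grey) and the most paused 10% (red). The members lay between 0.606 and 1.68 kb, below the other sets in every library.

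The 12 lowest indices belonged to genes of several roles. GFI1, a zinc-finger repressor of blood cell fate (chr1:92940318-92952433 on hg19), had the lowest index: 175 promoter-proximal and 23451 gene-body reads over 12.1 kb in the choosing libraries. Its index was 0.0724 and 0.105 kb in run 1, 0.224 and 0.344 in run 2 and 0.114 in run 3, so that its rank among eligible transcripts was 1 in the choosing libraries and 4 in the others. HNRNPA3, an RNA-binding protein of the spliceosome's hnRNP particles (chr2:178077422-178088685), was at 0.127 kb in the choosing libraries and 0.630 kb in the others, where its rank was 79. PCNA, the sliding clamp of DNA replication (chr20:5095599-5107268), held ranks 3 and 2, with 0.148 and 0.193 kb. The chromatin-loop cofactor LDB1 was at 0.159 and 0.291 kb, the Ras-association gene RASSF1 at 0.161 and 0.513 kb and the mRNA-binding gene SERBP1 at 0.188 and 0.553 kb. PAICS, an enzyme of purine synthesis (chr4:57301915-57327534), was at 0.199 and 0.447 kb. MYB, a proto-oncogene of haematopoietic progenitors known for control of elongation within its first intron (chr6:135502453-135540311), was at 0.201 and 0.349 kb. The chaperonin subunit CCT6A was at 0.210 and 0.356 kb, the phosphodiesterase PDE1B at 0.192 and 0.322 kb, the phosphatase-binding PPP1R18 at 0.200 and 0.215 kb and the galectin LGALS12 at 0.208 and 0.196 kb. In the untreated libraries that the choice did not use the index was higher for 11 of these 12, as it was for the median transcript, and lower for LGALS12.

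The members were transcribed densely, as the rule requires: at least 100 promoter-proximal reads and a low index together demand many gene-body reads per kb. Their median gene-body level in the untreated libraries of runs 2 and 3 was 4.36 CPM per kb, against 2.03 for the other eligible transcripts and 1.40 for the most paused 10%. Their promoter-proximal level, which the choice by a low index also favours to be low, was at a median of 26.6 CPM against 65.2 and 249. GFI1, HNRNPA3, RPS29, RPL27A, HNRPDL and PPIA had the most gene-body reads per kb of all members in the choosing libraries. These are the repressor named above, 2 RNA-binding proteins, 2 ribosomal proteins and the peptidyl-prolyl isomerase cyclophilin A.

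Members were shorter than other eligible transcripts and more often shared their span with another transcript. Their median length was 21.3 kb against 29.1 kb for the other eligible transcripts and 31.3 kb for the most paused 10%, and length entered the index. Of the 600 members 92 (15.3%) overlapped another listed transcript, against 10.4% of the other eligible and 7.67% of the most paused. An annotated start at least 1000 bases downstream of the listed one was present in GENCODE v29 for 171 of the 579 members matched to it (29.5%), against 21.6% and 19%. A start as far upstream was present for 35 (6.04%), against 4.42% and 3.63%. Of the genes named here, such a downstream start belongs to ARHGAP25, CD34, CHD2, CHD4, ELF1, GFI1, GLI4, IDH2, LDB1, LGALS12, NEK6, PCNA, PDE1B, PFKP, PPP1R18, PRDM8, RASSF1, RPL27A, U2AF1, UCK2 and ZNF662. RPS29, RRM2 and UHRF1 have an upstream one, RUNX1 has both, and RUNX1 and ZNF740 overlap another listed transcript. No source used here gives the strand counted or the extent of the promoter-proximal window. The part of overlapping transcripts and other starts in a low index was not tested.

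RefSeq promoter windows of 300 bases (250 before the start, 50 after it) were matched for 508 of the 600 members. Their median GC content was 67.3%, against 65.0% for 4519 other eligible transcripts, 63.0% for 518 of the most paused and 58.3% for all 27305 windows. Promoter motifs were searched as exact letters on both strands, with overlaps between motifs allowed. A CCAAT box was in 34.6% of member windows, 40.0% of other eligible, 44.2% of most paused and 35.7% of all windows. The ETS site CCGGAAG was in 19.1%, 25.5%, 26.1% and 10.7% of the same sets, and the NRF1 core GCATGCG in 5.12%, 8.25%, 9.27% and 4.13%. The cAMP response element TGACGTC was in 4.92%, 6.59%, 8.69% and 3.63%. Other motifs were at about the same share in members and other eligible transcripts: the GC box in 72.2% of both, the TATA box TATAAA in 4.33% and 4.45%, the YY1 core AGATGGC in 8.27% and 9.12%. The runt site TGTGGT was in 9.65% and 9.07%, and the AP-1 site TGACTCA in 2.36% and 2.35%. Over all windows these 5 were in 44.6%, 12%, 5.61%, 13.1% and 4.92%, and in the most paused windows in 75.1%, 5.02%, 8.49%, 8.88% and 2.90%. The E-box CACGTG was in 13.0% of member windows, 11.1% of other eligible, 9.65% of most paused and 7.43% of all windows, and the GAGA repeat GAGAGAG in 9.06%, 7.94%, 7.72% and 9.41%. The least paused windows thus had more GC and a larger share with the E-box and the GAGA repeat than the most paused ones. For the GAGA repeat the difference was small (46 of 508 and 40 of 518 windows). Their share with the CCAAT box, ETS, NRF1 and cAMP-element letters was smaller. The other eligible windows lay between these 2 sets in each of these cases, and no difference was tested.

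The gene lists differed in how much of them was least paused. Of 6009 eligible transcripts 9.99% are members by construction. Among splicing and RNA-binding genes 13 of 43 (30.2%) were members: SFPQ, NONO, HNRNPD, SF3B2, HNRNPL, HNRNPC, DDX17, HNRNPM, HNRNPF, U2AF2, PCBP2, EFTUD2 and U2AF1. Of haematopoietic and myeloid identity genes 5 of 21 (23.8%) were, namely GFI1, MYB, RUNX1, SPN and CD34. Protein folding and ER genes gave 7 of 35 (20.0%), with 3 subunits of the cytosolic chaperonin (CCT6A, CCT5 and CCT8) and the mitochondrial chaperones HSPA9 and HSPD1. Chromatin remodellers and histone enzymes gave 6 of 31 (19.4%): CHD4, CHD2, HDAC2, BAZ1A, BAZ2A and EP400, of which BAZ1A and BAZ2A encode partners of SMARCA5. Ribosome biogenesis gave 5 of 29 (17.2%), glycolysis and carbon metabolism 5 of 30 (16.7%), pause and elongation factors 4 of 33 (12.1%: SSRP1, SUPT6H, MLLT1 and TCEA1) and DNA replication and mitosis 6 of 55 (10.9%). At the low end, 18 of 270 ZNF genes (6.67%), 7 of 101 solute carriers (6.93%), 1 of 25 sterol and fatty acid genes, 1 of 25 cytoskeletal genes and 0 of 5 immediate early genes were members. The lists also differ in level: the eligible splicing genes had a median of 6.11 and the haematopoietic ones of 10.3 gene-body CPM per kb, against 1.86 for the ZNF genes and 2.19 over all. The part of level in these shares was not tested.

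**Figure D3:**
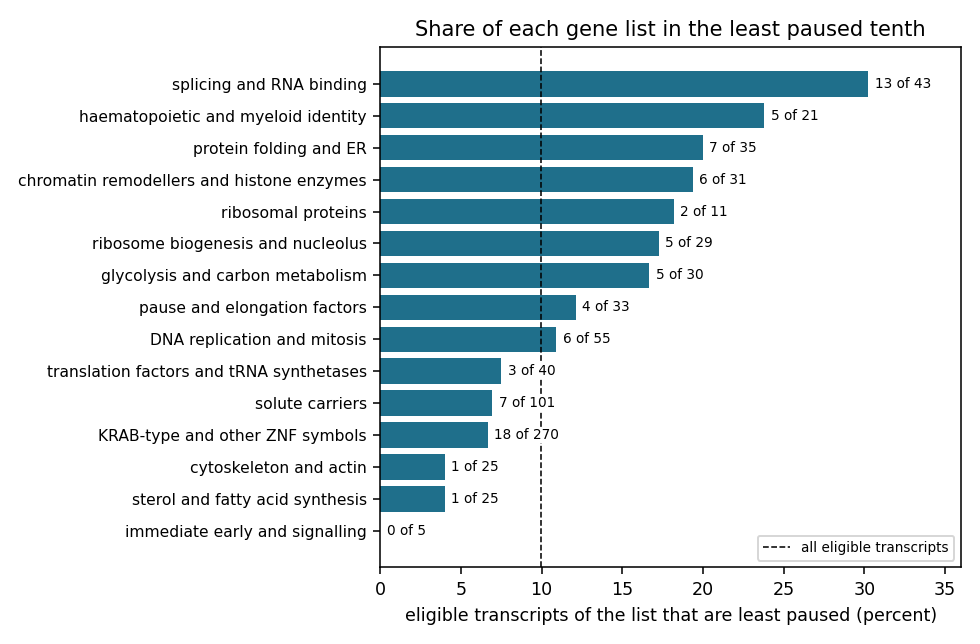
Share of the eligible transcripts of each gene list that fell in the least paused 10% (x axis, percent), with members and eligible transcripts counted beside each bar. The dashed line is the share over all 6009 eligible transcripts, 9.99%, and the splicing and RNA-binding list stands highest at 13 of 43.

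After dTAG-47 more least paused genes lost gene-body reads than gained them, at each time. At 2 h 111 members (18.5%) fell and 44 (7.33%) rose, at 6 h 162 (27.0%) fell and 65 (10.8%) rose, and at 24 h 111 (18.5%) fell and 62 (10.3%) rose (edgeR quasi-likelihood test, adjusted p under 0.05, all 600 tested). Over all 10304 transcripts the calls were balanced: 13.3% fell and 11.5% rose at 2 h, 18.4% and 19.3% at 6 h, and 14.3% and 15.4% at 24 h. In the most paused 10% the balance was the other way, with 9.17% fallen and 14.7% risen at 2 h, 15.0% and 26.0% at 6 h and 11% and 16% at 24 h. The sizes were small: the members' median log2 change was -0.030, -0.055 and -0.022 at the 3 times, beside 0.017, 0.016 and 0.015 over all transcripts. Gene-body reads were scaled between libraries over these same transcripts, which centres their changes. The balance over all transcripts was thus largely set by the scaling, and the rises and falls of a set hold only relative to it. The called members had a median absolute change of 0.30, 0.25 and 0.32, and a change over 2-fold was called only for MMAB at 2 h and for SFXN1 at 6 and 24 h. In all, 292 members were called at 1 time or more, 61 fell at all 3 times, 18 rose at all 3, and 3 rose at one time and fell at another. Of all 10304 transcripts 737 fell and 621 rose at all 3 times, and the other counts were not made over all transcripts. The 3 comparisons share their untreated libraries. In such bulk libraries fewer cells of a kind and less nascent RNA per cell cannot be told apart.

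Other eligible transcripts of high gene-body level were counted as well, without matching levels. The 605 other eligible transcripts at or above the members' median level in the choosing libraries fell in 17.0%, 30.1% and 19.3% of cases at 2, 6 and 24 h and rose in 10.6%, 10.2% and 10.6%. The 300 members at or above that level fell in 20.7%, 32.0% and 21.7% and rose in 8.67%, 10.7% and 9.67%. No test of the difference between these sets was made. Among the 508 members that overlap no other listed transcript, 20.9%, 28.5% and 19.9% fell and 6.50%, 10.8% and 10.2% rose. Among the 419 members again in the lowest 10% in runs 2 and 3, 16.0%, 24.3% and 14.6% fell and 8.59%, 11.7% and 11.2% rose, closer to the shares over all transcripts. That subset was picked on untreated libraries that also enter the test. The counts depended on single libraries: the share of members called at 2 h, 25.8%, was 15.5%, 15.0% and 13.8% without 0 h B, 2 h A or 2 h B of run 2, and the share at 24 h, 28.8%, was 15.0% and 16.7% without 24 h A or 24 h B of run 2. Of all 10304 transcripts 1422, 1359 and 1165 were called in these 2 h fits, where the main fit called 1188 risen and 1367 fallen. The 24 h fits called 1522 and 1739, where the main fit called 1587 risen and 1471 fallen. The drop was thus not particular to the members. At 6 h, 226 of the 227 called members changed in the same direction in run 2 and in run 3 taken by themselves, with SFPQ the exception. The calls were made on these same libraries, so this agreement was largely set by the choice. Among all 600 members, called or not, 407 changed in the same direction in both runs (Spearman rho 0.467).

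**Figure D4:**
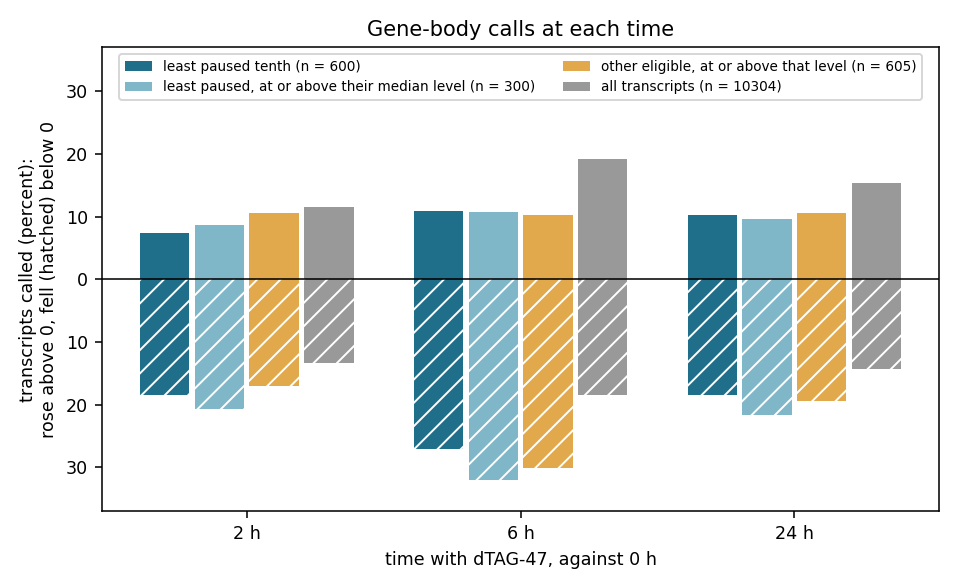
Percent of transcripts called in gene bodies at each time against 0 h, risen above the zero line and fallen (hatched) below it, for the members (dark blue), members at or above their median gene-body level (light blue), other eligible transcripts at or above that level (yellow) and all transcripts (grey). At 6 h 27.0% of the members fell and 10.8% rose, against 18.4% and 19.3% of all transcripts. At or above the members' median level 32.0% of members fell and 10.7% rose, against 30.1% and 10.2% of other eligible transcripts.

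Of the called members, PCNA had the deepest gene-body fall at 2 h and SFXN1 at 6 and 24 h. In the sentences below gene-body CPM is given per library, run 2 before run 3 and A before B, and statements on overlap concern these 11 libraries. SFXN1, a mitochondrial serine transporter (chr5:174905514-174955621), had 130.00, 130.2 and 101 at 0 h, 69.4 and 68.4 at 2 h, 64.2, 62.7, 47.9 and 50.1 at 6 h and 50.9 and 53.02 at 24 h. Every treated library was below every untreated one. The log2 change was -0.92 ± 0.061 (SE, adjusted p = 6.5e-06) at 2 h, -1.04 ± 0.048 (SE, adjusted p = 2.7e-07) at 6 h and -1.33 ± 0.062 (SE, adjusted p = 4.5e-07) at 24 h. PDK1, a kinase that restrains pyruvate dehydrogenase (chr2:173420779-173463862), had 208, 207 and 165 at 0 h, 124 and 117 at 2 h, 121, 116, 99.8 and 105 at 6 h and 102 and 109 at 24 h. The groups did not overlap. For PDK1 the log2 change was -0.76 ± 0.060 (SE, adjusted p = 2.1e-05) at 2 h, -0.76 ± 0.048 (SE, adjusted p = 9.4e-07) at 6 h and -0.95 ± 0.061 (SE, adjusted p = 2.5e-06) at 24 h. PFKP, the platelet-type phosphofructokinase of glycolysis (chr10:3109712-3178997), had 407, 405 and 409.7 at 0 h, 259 and 286 at 2 h, 244, 246, 309 and 266 at 6 h and 266 and 249 at 24 h. It too lay below the untreated range in all 8 treated libraries, with log2 changes of -0.53, -0.64 and -0.61 (largest adjusted p = 7.0e-04). GALK1, which phosphorylates galactose, had 23.96, 21.9 and 29.3 at 0 h, 14.6 and 15.1 at 2 h, 14.5, 14.4, 16.3 and 13.6 at 6 h and 17.2 and 13.4 at 24 h, with log2 changes of -0.69 ± 0.14 (SE, adjusted p = 0.0055) at 2 h and -0.80 ± 0.11 (SE, adjusted p = 2.0e-04) at 6 h. Its call at 24 h (-0.65, adjusted p = 0.0055) was lost without 24 h B of run 2 (adjusted p = 0.072). STC2, a secreted glycoprotein hormone, had log2 changes of -0.62, -0.81 and -0.84. Its call at 6 h held without each library in turn, that at 2 h was lost without 0 h A, 0 h B, 2 h A or 2 h B of run 2 (adjusted p 0.074 to 0.14), and that at 24 h without 24 h B of run 2 (adjusted p = 0.051). PRDM8, of the PRDM family of zinc-finger proteins, had -0.82 at 2 h, and the zinc-finger gene ZNF662 had -0.66, -0.72 and -0.57. Of the 5 glycolysis and carbon metabolism members, PFKP and PDK1 fell at all 3 times, IDH2, the mitochondrial NADP isocitrate dehydrogenase, rose at 2 and 6 h (0.27 and 0.22; the 2 h call was lost without 0 h B or 2 h B of run 2 (adjusted p 0.063 to 0.086)), and PGAM1 and MDH1 did not pass the test. UCK2, which phosphorylates uridine and cytidine, fell with log2 changes of -0.36, -0.47 and -0.32 (largest adjusted p = 2.2e-04). PAICS fell with log2 changes of -0.26, -0.41 and -0.40, the first of which was lost without 2 h B of run 2 (adjusted p = 0.076).

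Ribosome biogenesis genes among the members also fell, 2 of 5 at 2 h and 4 of 5 at 6 h and at 24 h, beside 13.3%, 18.4% and 14.3% of all transcripts. DDX21, a nucleolar RNA helicase (chr10:70715892-70744279), had 258, 247 and 242 at 0 h, 211 and 204 at 2 h, 163, 171, 172 and 168 at 6 h and 179.7 and 193 at 24 h. The 6 h libraries were the lowest in both runs. Its log2 change was -0.26 ± 0.054 (SE, adjusted p = 0.0050) at 2 h, -0.56 ± 0.044 (SE, adjusted p = 4.1e-06) at 6 h and -0.42 ± 0.055 (SE, adjusted p = 1.9e-04) at 24 h. UTP14A, a small-subunit processome component, fell with log2 changes of -0.37 at 6 h and -0.40 at 24 h. LYAR, a nucleolar growth regulator, had -0.47 and -0.24, the latter a call lost without 0 h A, 0 h B, 6 h A, 6 h B or 24 h B of run 2, or without 0 h A of run 3 (adjusted p 0.055 to 0.32). POLR1B, the second subunit of RNA polymerase I, had -0.32, -0.44 and -0.23 at the 3 times, with the 2 h call lost without 2 h B of run 2 (adjusted p = 0.070), with the 24 h call lost without 0 h A, 0 h B, 24 h A or 24 h B of run 2, or without 0 h A of run 3 (adjusted p 0.052 to 0.21). FBL, the rRNA methyltransferase fibrillarin, did not pass at any time (0.10, -0.08 and 0.03). Of the 7 protein folding members 4 fell at 24 h, where 14.3% of all transcripts did: CCT6A, CCT5, CCT8 and HSPA9, with log2 changes of -0.21, -0.32, -0.29 and -0.38. The call of CCT6A was lost without 0 h A, 6 h A, 6 h B, 24 h A or 24 h B of run 2 (adjusted p 0.051 to 0.17), and that of CCT8 without 0 h B, 24 h A or 24 h B of run 2 (adjusted p 0.058 to 0.18). Of the 18 ZNF members 5, 7 and 7 fell and 0, 2 and 1 rose at 2, 6 and 24 h, where 13.3%, 18.4% and 14.3% of all transcripts fell and 11.5%, 19.3% and 15.4% rose. The 4 pause and elongation factor members had log2 changes between -0.13 and 0.16, none past the threshold.

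The haematopoietic members did not move together. MYB had 954, 973 and 731 at 0 h, 665 and 665 at 2 h, 728, 701, 543 and 576 at 6 h and 731 and 763 at 24 h. In runs 2 and 3 all treated libraries lay below the untreated ones of their own run. Its log2 change was -0.52 ± 0.044 (SE, adjusted p = 2.4e-05) at 2 h, -0.41 ± 0.035 (SE, adjusted p = 7.0e-06) at 6 h and -0.36 ± 0.044 (SE, adjusted p = 1.3e-04) at 24 h. RUNX1, the runt-family factor whose fusion gene defines this leukaemia (chr21:36160098-36260987), had 2564, 2441 and 2317 at 0 h, 2007 and 2062 at 2 h, 1906, 1924, 1825 and 1865 at 6 h and 2046 and 1914 at 24 h, with no overlap between untreated and treated libraries. RUNX1 had log2 changes of -0.28 ± 0.041 (SE, adjusted p = 7.0e-04) at 2 h, -0.36 ± 0.034 (SE, adjusted p = 1.2e-05) at 6 h and -0.32 ± 0.041 (SE, adjusted p = 1.6e-04) at 24 h. Reads of the fusion and of the other listed RUNX1 transcript cannot be told apart from those of this entry. CD34, a surface sialomucin of progenitors (chr1:208059883-208084683), had 84.7, 80.1 and 215 at 0 h, 78.1 and 81.2 at 2 h, 96.6, 102, 231 and 210.4 at 6 h and 141 and 133 at 24 h. It was higher in all 3 libraries of run 3 than in any of run 2, and within run 2 both 24 h libraries were above the other 6. Its log2 change was 0.68 ± 0.074 (SE, adjusted p = 6.4e-05) at 24 h and -0.10 ± 0.076 (SE, adjusted p = 0.37) at 2 h, and its call at 6 h (0.17, adjusted p = 0.044) was lost without 0 h A, 0 h B, 2 h A, 2 h B, 6 h A, 6 h B, 24 h A or 24 h B of run 2, or without 6 h A of run 3 (adjusted p 0.055 to 0.17). SPN, the leukocyte sialophorin, rose by 0.40 ± 0.078 (SE, adjusted p = 0.0025) at 24 h. ARHGAP25, a Rac GTPase-activating protein of blood cells, rose by 0.61 ± 0.045 (SE, adjusted p = 4.9e-06) at 24 h. At 2 h it was -0.16 ± 0.045 (SE, adjusted p = 0.021), a call lost without 0 h A or 2 h A of run 2 (adjusted p 0.095 to 0.12). GFI1 had 605, 575 and 512 at 0 h, 442 and 513 at 2 h, 479.7, 485, 581 and 484 at 6 h and 561 and 576 at 24 h, with ranges that overlapped at each time and log2 changes of -0.24, -0.15 and 0.02, none past the threshold.

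**Figure D5:**
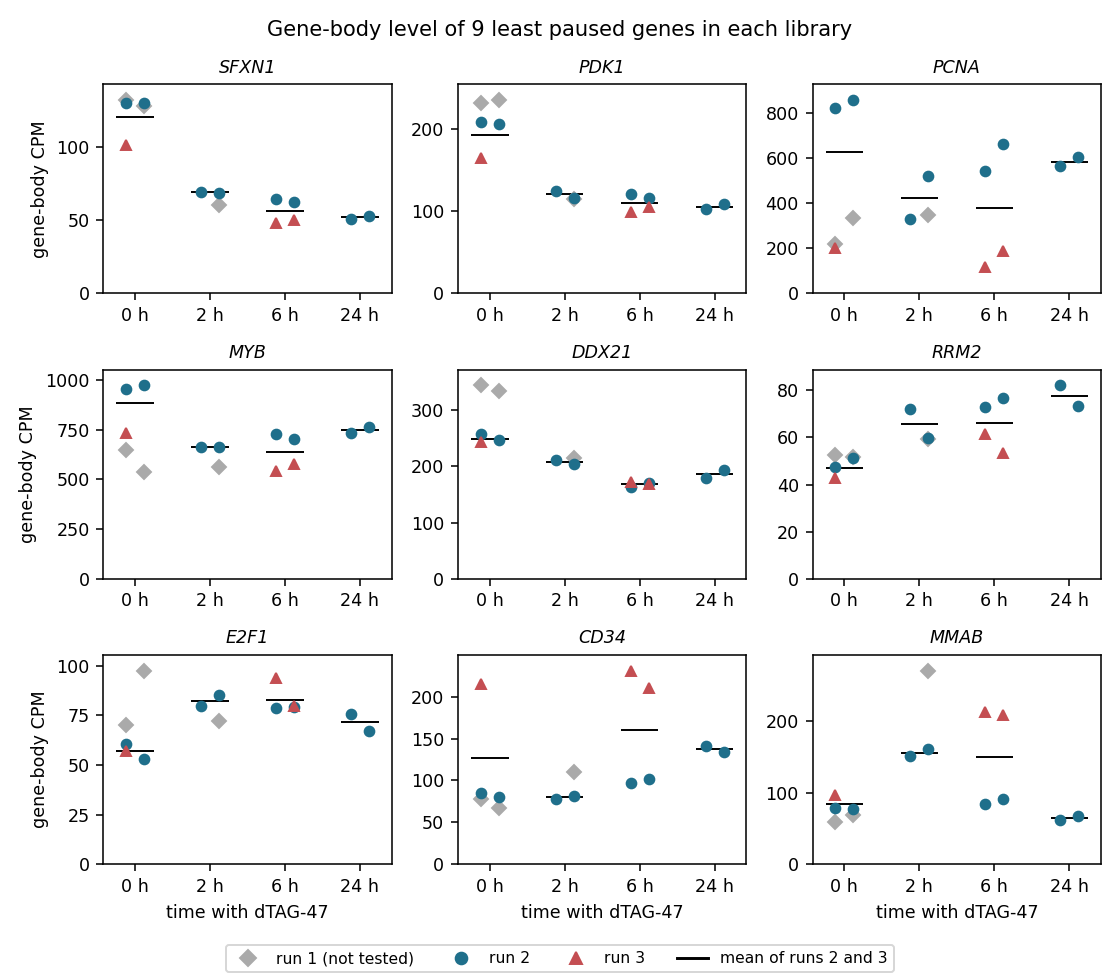
Gene-body level (y axis, CPM) of 9 least paused genes in each library by time with dTAG-47 (x axis), with run 1 as grey diamonds, run 2 as blue circles, run 3 as red triangles and the mean of runs 2 and 3 as a black line. SFXN1 and PDK1 were lower in every treated library, while PCNA and CD34 differed more between runs than between times.

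Genes of DNA replication and its regulation were on both sides. PCNA had 821, 857 and 202 at 0 h, 328 and 518 at 2 h, 542, 663, 119 and 188 at 6 h and 563 and 602 at 24 h. Its level was lower in run 3 than in run 2 at 0 h and at 6 h, and within run 2 and within run 3 every treated library was below the untreated ones. The log2 change was -0.97 ± 0.19 (SE, adjusted p = 0.0044) at 2 h, a call kept without each library in turn. At 24 h it was -0.51 ± 0.19 (SE, adjusted p = 0.062), and at 6 h -0.44 ± 0.16 (SE, adjusted p = 0.040), a call lost without 0 h A, 0 h B, 6 h A, 24 h A or 24 h B of run 2, or without 0 h A of run 3 (adjusted p 0.058 to 0.14). RRM2, the small subunit of ribonucleotide reductase (chr2:10262695-10271546), had 47.3, 51.4 and 42.8 at 0 h, 71.9 and 59.96 at 2 h, 72.7, 76.8, 61.3 and 53.5 at 6 h and 82.2 and 73.2 at 24 h. Every treated library was above every untreated one. The log2 change of RRM2 was 0.53 ± 0.084 (SE, adjusted p = 4.9e-04) at 6 h and 0.62 ± 0.10 (SE, adjusted p = 9.6e-04) at 24 h. At 2 h it was 0.38 ± 0.10 (SE, adjusted p = 0.019), lost without 0 h A, 0 h B or 2 h A of run 2 (adjusted p 0.054 to 0.18). E2F1, an activator of S-phase genes (chr20:32263292-32274210), had 60.4, 53.1 and 56.8 at 0 h, 79.8 and 85.1 at 2 h, 78.8, 79.03, 93.9 and 79.8 at 6 h and 75.9 and 67.1 at 24 h, again without overlap. E2F1 had log2 changes of 0.57 ± 0.094 (SE, adjusted p = 0.0014) at 2 h and 0.53 ± 0.078 (SE, adjusted p = 2.7e-04) at 6 h. At 24 h it was 0.36 ± 0.095 (SE, adjusted p = 0.014), lost without 0 h B or 24 h A of run 2 (adjusted p 0.064 to 0.15). MCM2, a subunit of the replicative helicase, and UHRF1, which guides maintenance DNA methylation, rose at 2 h by 0.36 ± 0.066 (SE, adjusted p = 0.0026) and 0.41 ± 0.063 (SE, adjusted p = 9.9e-04).

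The largest rise was that of MMAB, which converts cobalamin to adenosylcobalamin (chr12:109991521-110011358). It had 77.8, 76.4 and 95.97 at 0 h, 151 and 160.1 at 2 h, 84.4, 91.04, 212 and 209 at 6 h and 61.4 and 67.2 at 24 h. In run 2 it was high at 2 h only, while both 6 h libraries of run 3 were above their untreated library. The log2 change was 1.21 ± 0.17 (SE, adjusted p = 5.8e-04) at 2 h and -0.07 ± 0.18 (SE, adjusted p = 0.80) at 24 h. At 6 h it was 0.58 ± 0.15 (SE, adjusted p = 0.0084), a call lost without 0 h A of run 3 (adjusted p = 0.053), which leaves run 3 with no untreated library. The 6 h change was 0.19 in run 2 and 1.12 in run 3 taken by themselves. NEK6, a mitotic kinase (chr9:127019885-127114719), had 360.3, 347 and 408 at 0 h, 495 and 540.1 at 2 h, 453, 458, 645 and 568.1 at 6 h and 556 and 528 at 24 h. Its log2 change was 0.59 ± 0.069 (SE, adjusted p = 1.9e-04) at 2 h, 0.45 ± 0.058 (SE, adjusted p = 1.1e-04) at 6 h and 0.66 ± 0.069 (SE, adjusted p = 4.9e-05) at 24 h, and in runs 2 and 3 all treated libraries were above the untreated ones of their own run. Of the 13 splicing and RNA-binding members only SFPQ and SF3B2 rose, at all 3 times, by 0.32, 0.23 and 0.37 and by 0.38, 0.26 and 0.24. The calls of SFPQ were lost at 2 h without 0 h A, 0 h B, 2 h A or 2 h B of run 2 (adjusted p 0.089 to 0.14), at 6 h without 0 h A, 0 h B, 6 h A or 6 h B of run 2 (adjusted p 0.097 to 0.14) and at 24 h without 0 h A, 0 h B, 24 h A or 24 h B of run 2 (adjusted p 0.060 to 0.071). The 24 h call of SF3B2 was lost without 0 h A, 24 h A or 24 h B of run 2 (adjusted p 0.081 to 0.11). EFTUD2 had log2 changes of -0.14 and -0.19 at 6 and 24 h, with the 6 h call lost without 0 h A, 0 h B, 6 h A or 6 h B of run 2 (adjusted p 0.055 to 0.066), with the 24 h call lost without 0 h A, 0 h B, 24 h A or 24 h B of run 2 (adjusted p 0.054 to 0.099). U2AF1 had -0.21 at 24 h, with the 24 h call lost without 0 h A, 0 h B or 24 h B of run 2 (adjusted p 0.060 to 0.13). Both passed the test at these times, and the remaining 9 were not called at any time.

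Near the promoter few members changed, at about the share of all transcripts. At 2 h 16 members (2.67%) rose and 9 (1.5%) fell, against 2.42% and 1.84% of the 9914 transcripts tested. At 6 h 8 (1.33%) rose and 18 (3.0%) fell, against 2.33% and 3.07%, and at 24 h 10 (1.67%) rose and 11 (1.83%) fell, against 1.82% and 2.00%. Both regions of a member fell together in 4, 10 and 7 cases and rose together in 1, 2 and 3, counts not made over all transcripts. Member counts near the promoter are low, with a median of 252 reads over the 3 untreated libraries of runs 2 and 3 and a minimum of 18. UCK2 had 50.1, 41.4 and 20.3 at 0 h, 22.4 and 25.4 at 2 h, 19.5, 13.7, 12.3 and 9.14 at 6 h and 22.5 and 17.6 at 24 h promoter-proximal CPM. Its log2 change was -1.26 ± 0.23 (SE, adjusted p = 0.0053) at 6 h, where all 4 libraries lay below the untreated 3. ZNF740, a zinc-finger gene that overlaps another listed transcript, had 54.4, 42.4 and 58.5 at 0 h, 32.1 and 39.1 at 2 h, 22.1, 19.9, 28.2 and 26.9 at 6 h and 29.5 and 20.4 at 24 h, with a log2 change of -1.15 ± 0.20 (SE, adjusted p = 0.0037) at 6 h. The readthrough entry BCL2L2-PABPN1, which spans 2 neighbouring genes, had 22.1, 19.5 and 19.3 at 0 h, 41.1 and 37.9 at 2 h, 40.1, 50.7, 63.8 and 39.2 at 6 h and 47.1 and 37.98 at 24 h, with a log2 change of 1.24 ± 0.22 (SE, adjusted p = 0.0045) at 6 h, with every treated library above the untreated ones. These 3 calls, and that of C5orf62 at 6 h (-1.17, adjusted p = 0.0053), were the ones among 54 named promoter-proximal calls that held without each library in turn. HDAC2, a histone deacetylase, had 43.5, 77.8 and 18.9 at 0 h, 25.4 and 27.4 at 2 h, 30.8, 27.8, 11.99 and 15.6 at 6 h and 19.03 and 21.99 at 24 h. Its log2 changes were -1.09 ± 0.29 (SE, adjusted p = 0.041) at 2 h, -0.83 ± 0.24 (SE, adjusted p = 0.048) at 6 h and -1.45 ± 0.30 (SE, adjusted p = 0.013) at 24 h. Without 0 h B of run 2, its highest library, the adjusted p of HDAC2 was 0.28, 0.27 and 0.12 at the 3 times, and other libraries also ended its calls. With promoter-proximal reads scaled by gene-body library factors, 39.3%, 13.8% and 12% of members fell and 0.167% rose at each time. Their median log2 changes were -0.71, -0.41 and -0.48. Under this scaling 3831, 1615 and 1155 of all 9914 transcripts were called, with medians of -0.68, -0.37 and -0.43. The shift was thus not particular to the members, and a direction near the promoter holds only relative to the scaling.

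The ratio of promoter-proximal to gene-body reads was called in 20 members at 1 time or more (limma), a count not made over all transcripts. Each region was scaled by its own library factors, which removes a shift of the ratio common to all transcripts. With gene-body factors for both regions the members' median log2 ratio change was -0.70, -0.35 and -0.45 at 2, 6 and 24 h. Over all transcripts it was -0.73, -0.40 and -0.45. The directions below thus hold only relative to the separate scaling. At 2 h it rose in 7 members (1.17%) and fell in 4 (0.667%), against 1.07% and 0.857% of all transcripts. At 6 h it rose in 5 (0.833%) and fell in 3 (0.5%), against 0.676% and 0.898%, and at 24 h it rose in 4 (0.667%) and fell in 4 (0.667%), against 0.726% and 1.27%. Of the 26 named calls of the ratio 0 held without each library in turn. MYB had 27.5, 24.8 and 63.7 at 0 h, 50.2 and 32.4 at 2 h, 34.9, 45.3, 132 and 81.7 at 6 h and 26.04 and 37.98 at 24 h promoter-proximal CPM, with the untreated library of run 3 above those of run 2 and every treated library of run 3 above it. Its log2 ratio changed by 1.17 ± 0.29 (SE, adjusted p = 0.045) at 2 h, 1.05 ± 0.24 (SE, adjusted p = 0.031) at 6 h and 0.65 ± 0.29 (SE, adjusted p = 0.25) at 24 h. The 2 h call was lost without 0 h A, 0 h B, 2 h A, 2 h B, 6 h A or 6 h B of run 2 (adjusted p 0.056 to 0.46). The 6 h call was lost without 0 h A, 0 h B, 6 h A or 6 h B of run 2, or without 0 h A of run 3 (adjusted p 0.072 to 0.16). SERBP1 had 13.3, 9.20 and 40.6 at 0 h, 38.7 and 41.05 at 2 h, 16.9, 19.1, 33.5 and 33.1 at 6 h and 49.1 and 22.8 at 24 h, lowest in the 2 untreated libraries of run 2 and as high in the untreated library of run 3 as at 2 h, so that its groups overlapped. SERBP1 had a log2 ratio change of 1.69 ± 0.33 (SE, adjusted p = 0.021) at 2 h, 0.48 ± 0.27 (SE, adjusted p = 0.39) at 6 h and 1.503 ± 0.33 (SE, adjusted p = 0.029) at 24 h. Its calls were lost at 2 h without 0 h A, 0 h B, 2 h A or 2 h B of run 2 (adjusted p 0.072 to 0.27), and at 24 h without 0 h A, 0 h B or 24 h A of run 2 (adjusted p 0.093 to 0.36). ELF1, an ETS-family factor of blood cells, had ratio changes of 1.02, 1.12 and 1.35 beside gene-body changes of -0.38, -0.31 and -0.28. Its ratio was called at 6 and 24 h, and the first call was lost without 0 h A, 0 h B, 6 h A or 6 h B of run 2, or without 0 h A of run 3 (adjusted p 0.070 to 0.14). The second was lost without 0 h A, 0 h B, 6 h A, 6 h B, 24 h A or 24 h B of run 2 (adjusted p 0.050 to 0.19).

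Run 1 held 1 library at 2 h, and its untreated libraries chose the members, partly on their gene-body reads. Its levels are given as a description, with no comparison. SFXN1 had 132 and 128 gene-body CPM at 0 h and 60.2 at 2 h there, PDK1 232 and 236 and 115, and MMAB 59.3 and 69.2 and 270.3. PFKP was at 362 and 419 and then 270.4, and DDX21 at 344 and 335 and then 215. PCNA was at 218 and 333 and then 347, MYB at 646 and 538 and then 563, and E2F1 at 70.1 and 97.5 and then 71.9.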

How the data were processed

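The 6 deposited tables list transcripts with gene-body and promoter-proximal reads of the same 14 PRO-seq libraries. The authors deposited raw counts per transcript and region. They also deposited counts divided by library size factors, a signal in 84 columns that was not used. The authors also deposited log2 fold changes from DESeq2, per the file headers, which were not used. The authors' test score, and the p-values and adjusted p-values the authors computed with DESeq2 per the file headers, were not used either. Trimmomatic 0.32, Bowtie2 2.2.2, SAMtools, HOMER, DESeq, DESeq2 and hg19 are named in the submitters' processing notes. No source used here gives the counting windows, strand or prefilter. The 2 parental samples were not analysed here. Column names give time, letter and run code but no replicate number of the labels.

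The index, members and limits are as stated in the report. Gene-body and promoter-proximal counts were each tested with edgeR 4.0.16 (quasi-likelihood, TMM, filterByExpr) in R 4.3.3, with terms for run and time over the 11 libraries of runs 2 and 3. The pausing ratio was tested with limma 3.58.1 (trend) on log2 promoter-proximal minus log2 gene-body CPM with a prior count of 2. Each region had its own TMM factors. P-values were adjusted (Benjamini-Hochberg) over all transcripts, with a threshold of 0.05. Levels are CPM with TMM factors over 14 libraries. The 6 h tests were also run on simulated counts with a common spread for all transcripts and no run effect. Those settings differ from these data, and the 2 and 24 h tests were not simulated. Depth sets the precision of each value, and counts cover counting error only.

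Genes were named by rule: the 12 lowest indices, those next to the limit, the 6 of highest gene-body density, up to 6 largest rises and falls per test and time, up to 4 of each list, and members needed to describe a list. The members, lists and named genes were chosen with earlier results of these data known. Alternatives were DESeq2 1.42.0, other filters, prior counts, scalings, thresholds and run terms, other membership limits, single runs, each library left out and, added later, the column letter as a block.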

Additional observations from a re-analysis of the deposited data

Results flagged for a closer look

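Of 66 groups of 4 or more libraries examined, 5 held a library far from the rest of its group, where chance gives about 1 in 20. The groups at 0 h hold all untreated libraries, run 1 included. The untreated library of run 3 had 63.7 promoter-proximal CPM for MYB, above the others, 215.0 gene-body CPM for CD34, above the others, and 101 gene-body CPM for SFXN1, below the others. The library 6 h A of run 3 had 581 gene-body CPM for GFI1 and 93.9 for E2F1, both above the other 6 h libraries. All 5 were libraries of run 3.

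In 4 of the genes followed, the 24 h level differed from the 2 h level by the edgeR contrast between these times. By the same contrast 50 of the 600 members were higher and 21 lower at 24 h. Of all 10304 transcripts 712 were higher and 317 lower, so such a difference was not particular to these genes. MMAB fell by 1.28 on the log2 scale from 2 to 24 h (adjusted p = 0.0013) and SFXN1 fell by 0.41 (adjusted p = 0.0023). CD34 rose by 0.78 (adjusted p = 1.1e-04) and MYB by 0.17 (adjusted p = 0.038). Both 24 h libraries lay beyond both 2 h libraries in each of the 4 genes.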

How the results depend on the processing

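The column letters A and B are not tied to the replicate numbers of the labels, and no source used here says that they pair libraries. In run 2 the differences between A and B correlated between times at -0.068 to 0.13 in gene bodies and -0.15 to 0.33 near the promoter. A replicate block by letter within run, added after seeing the data, gave 22.0%, 33.2% and 26.2% of members called in gene bodies, 3.83%, 3.17% and 2.33% near the promoter, and 2.33%, 0.833% and 1.0% for the ratio. Over all transcripts the block called 2099, 3316 and 2673 of 10304 in gene bodies. It called 446, 487 and 349 of 9914 near the promoter and 209, 134 and 184 for the ratio. Values are the percent of members called at 2, 6 and 24 h, unless one time is named. With 1 library left out at a time the gene-body share ran from 13.8% to 36.2%, 28.5% to 46.8% and 15.0% to 39.7%, the promoter-proximal share from 0% to 13.7%, 0.667% to 9.67% and 0% to 8.33%, and the ratio's share from 0% to 8.83%, 0% to 3.67% and 0% to 4.33%. Among all transcripts the number called in gene bodies then ran from 1165 to 3510, 2924 to 4593 and 1522 to 4018. Near the promoter it ran from 0 to 1318, 165 to 1105 and 19 to 1100. At a threshold of 0.01 the gene-body share was 13.0%, 24.3% and 16.8%, the promoter-proximal share 0%, 0.667% and 0%, and the ratio's 0%, 0.167% and 0%. Without a run term they were 6.0%, 21.7% and 13.5%, then 0%, 0.167% and 0%, then 0%, 0% and 0%. In run 2 alone the gene-body share was 43.0% at 2 h and 44.5% at 24 h, the promoter-proximal share 17.3%, 9.0% and 13.0%, and the ratio's, chosen after seeing the data, 11%, 3.17% and 8.0%. Over all transcripts run 2 alone called 3938 and 4447 of 10303 in gene bodies at 2 and 24 h. It called 1682, 938 and 1430 of 9781 near the promoter and 1106, 409 and 983 of 9780 for the ratio. In run 3 alone the 6 h shares were 6.67%, 0% and 0.167%, with 3 libraries. With gene-body scaling the promoter-proximal share was 39.5%, 14.0% and 12.2% and the ratio's 37.8%, 9.0% and 9.83%. Of all 9914 transcripts 3831, 1615 and 1155 were then called near the promoter and 4184, 1326 and 1220 for the ratio. Single runs and left-out libraries have fewer samples; otherwise the cause was not tested. Of the values for whole comparisons, 109 stayed within the set limits and 92 moved, and of those for named genes 3476 kept direction and call, 982 lost the call and 1 reversed: SFPQ in gene bodies at 6 h was -0.041 in run 3 alone. Named gene-body calls that held without each library in turn were 24 of 45, 43 of 68 and 33 of 59. With other membership limits 68.6% (at least 200 reads), 63.3% (lowest 300) and 68.8% (10 to 100 kb) of members were again lowest in runs 2 and 3. Members held a median of 252 promoter-proximal reads over the untreated libraries of runs 2 and 3, and the part of depth in the calls was not tested.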
